A study of Rattus norvegicus with 20 samples.

Results

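MicroRNAs (miRNAs) miR-320, miR-324-3p and miR-324-5p were followed across soleus muscle and dorsal root ganglia (DRGs) of rats with a sciatic nerve injury. The members were chosen by name, as rno-miR-320, rno-miR-324-3p and rno-miR-324-5p, and are 3 of the 350 miRNAs on the array. The choice rested on values of these same arrays, since the names were taken from miRNAs found lower than sham in the DRGs and in soleus. All differences from sham or from denervation are therefore given as a description, with no test. The values went against this choice for 1 member, miR-324-5p. On the scale used the sham value of miR-324-5p lay inside the range of each soleus injury group. In the DRGs all entrapment and decompression arrays lay above sham for this member. The study names miR-320 and miR-324-3p as lower in the DRGs after entrapment and decompression, but not miR-324-5p. Its list of changed miRNAs in soleus names none of the 3.

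The rats were adult male Sprague-Dawley animals, and 20 Agilent arrays of 1 colour were run, 10 for soleus and 10 for the DRGs. Each tissue had 3 arrays of the denervation group (a segment of the sciatic nerve removed, 6 months), 3 of the entrapment group (a silastic tube around the nerve, 6 months), 3 of the decompression group (tube removed after 6 months, then 3 months of recovery) and 1 of the sham group, in which the nerve was left uninjured. The Methods give 3 rats for every group and the labels 1 sham array per tissue, and neither says whether RNA was pooled. The labels call the arrays of a group replicates but tie none to a rat, so p-values measure the spread between these arrays only.

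Both miR-324 members come from 1 hairpin, whose 5′ and 3′ arms each yield a mature miRNA. miR-324-5p is known for repressing Smo and Gli1, activators of hedgehog signalling, and this hairpin is known for a choice of arm that follows uridylation of the precursor. miR-320 is made from a capped precursor that reaches Dicer without cleavage by Drosha. The RefSeq sequences of both arms are shown because the readout that the results turn on is the balance between them, with the seed (bases 2 to 8) in capitals.
rno-miR-324-5p: cGCAUCCCcuagggcauuggugu
rno-miR-324-3p: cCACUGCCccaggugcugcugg
The arms lie at chr10:55233378-55233400 and chr10:55233413-55233434 on the plus strand of GRCr8, are 23 and 22 bases long and have a GC content of 60.9% and 72.7%. Their seeds differ, and none of the other mature names among 693 in the RefSeq table carried either seed, a count of 0 for both. The hairpin of 83 bases (chr10:55233363-55233445, plus strand) is shown with both arms in capitals, the 5p arm at positions 16 to 38 and the 3p arm at 51 to 72.
Mir324: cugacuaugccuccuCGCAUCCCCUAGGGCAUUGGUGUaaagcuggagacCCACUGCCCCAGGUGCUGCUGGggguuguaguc
In this annotation Mir324 lies within Acadvl, which encodes an acyl-CoA dehydrogenase of mitochondrial fatty acid oxidation, and Mir320a lies between Polr3d and Phyhip. RefSeq sequences were matched for 2 of the 3 members.

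Some arrays stood apart or carried uncertain labels. The 75th percentile of the unscaled signal ran from 409 on the soleus sham array to 2539 on a soleus denervation array, and from 72.0 to 117 in the DRGs. It was taken over 108 miRNAs in soleus and 348 in the DRGs, so these ranges do not compare the tissues. Over the 102 miRNAs detected on all 20 arrays it was 410 to 2593 in soleus and 612 to 1169 in the DRGs. On the soleus sham array 11 of 26 control signals of at least 20 recurred to all digits on another soleus array, against 0 to 15 on the other soleus arrays and 0 on every DRG array, and none of the member signals did. In the DRGs the table of processed values gives the 6 entrapment and decompression arrays under the other group's name. The labels of the scanner files are followed here. Values that part DRG entrapment from DRG decompression turn on which naming is right, while those that pool these 6 arrays or leave them out do not. Signal summed over 5 skeletal muscle miRNAs was 47960 to 299100 in soleus and 260.9 to 467.4 in the DRGs on the scale shared by all 20 arrays. Signal summed over 6 neuronal miRNAs was 0 to 34.74 in soleus and 4227 to 5897 in the DRGs. In soleus miR-124, miR-9, miR-183 and miR-138 of this list were detected on 0 arrays. miR-182 was detected there on 2 of 3 denervation arrays and miR-96 on 1 decompression array.

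In soleus miR-320 and miR-324-3p were several-fold lower on every injury array than on the sham array, while miR-324-5p stayed near it on the scale used. Values are scaled signals, the intensity of each array brought to a common 75th percentile. miR-320 measured 154 on the sham array and 20.7, 25.9 and 15.7 on denervation arrays 1 to 3. It measured 15.5, 13.4 and 9.10 after entrapment and 9.75, 5.19 and 8.0 after decompression. All 9 injury arrays lay below sham, every entrapment array lay below every denervation array, though by 15.5 against 15.7 on denervation array 3, where miR-320 was not detected, and entrapment and decompression overlapped. Without that array entrapment still lay below denervation. The mean log2 difference from sham was -2.92 ± 0.36 (SD, n = 3) for denervation, -3.64 ± 0.40 for entrapment and -4.38 ± 0.47 for decompression. miR-320 was dim there, not detected on denervation array 3 and decompression array 2, with a signal of 1.01 to 12.1 times its error.

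miR-324-3p measured 967 on the soleus sham array and 103, 105 and 222 after denervation. The entrapment arrays gave 74.4, 59.2 and 84.7 and the decompression arrays 87.3, 79.1 and 84.2. Again no injury array reached sham, the 6 entrapment and decompression arrays lay below the 3 denervation arrays, and denervation array 3 stood above the other two. The mean log2 differences from sham were -2.85 ± 0.63, -3.75 ± 0.26 and -3.54 ± 0.07 (SD, n = 3). In bulk tissue, fewer cells of a type and less RNA per cell cannot be told apart.

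miR-324-5p, the partner arm, measured 48.0 on the soleus sham array. It was 48.1, 37.0 and 36.9 after denervation, 54.7, 31.6 and 42.6 after entrapment and 44.7, 52.1 and 50.4 after decompression. The groups overlapped one another, and sham lay inside the range of each. The log2 differences from sham were -0.25 ± 0.22, -0.20 ± 0.40 and 0.03 ± 0.12 (SD, n = 3), but with no scaling they were 1.23, 1.43 and 1.38 and with quantile normalization 0.41, 1.10 and 1.197, so the sign after denervation and entrapment depended on the scaling.

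**Figure D1:**
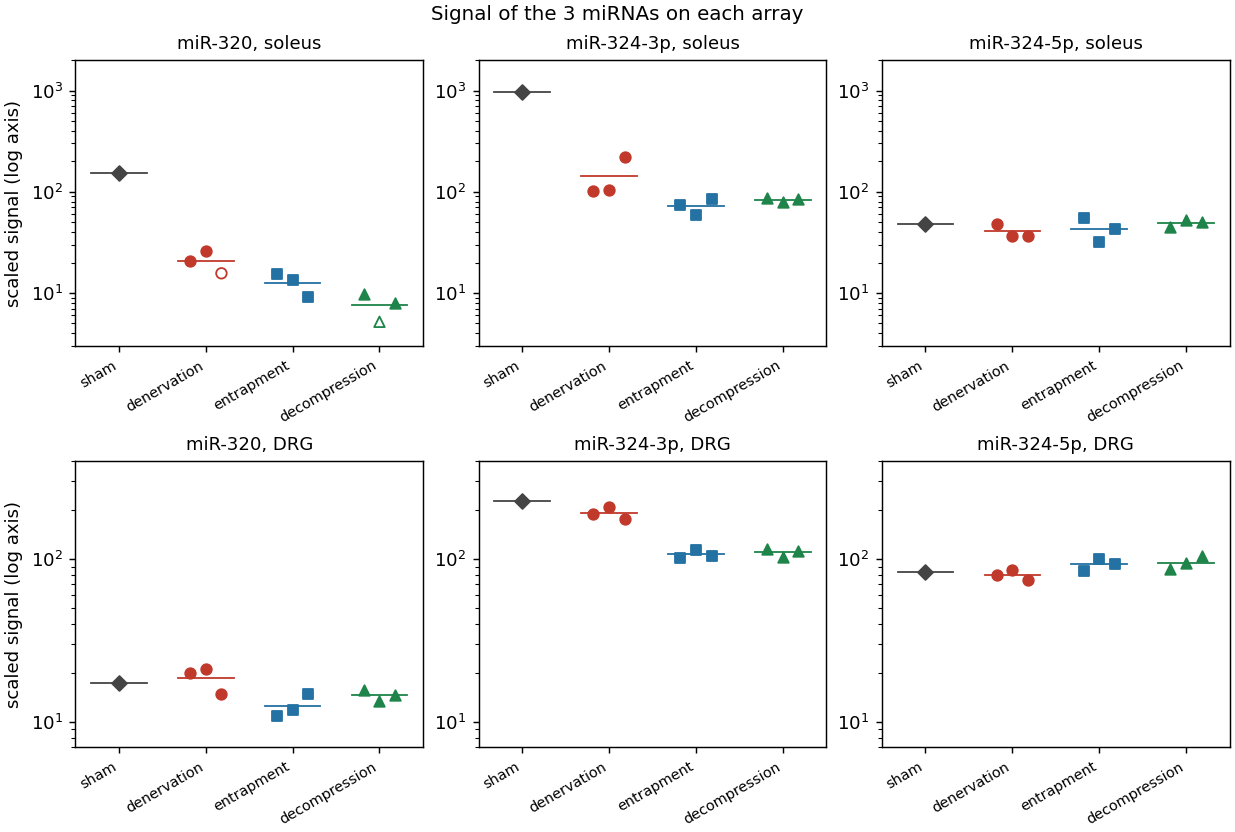
Scaled signal (log axis) of miR-320, miR-324-3p and miR-324-5p on each array of soleus (top) and DRGs (bottom, with its own axis range), by group. Each point is 1 array, open points were not detected and lines are group means. In soleus miR-320 and miR-324-3p lie far below the single sham array on all 9 injury arrays.

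By the rule of at least a 2-fold difference from sham on each of 3 arrays, 2 of the 3 members were lower after soleus denervation, where 18.5% of the 173 miRNAs tested were lower by the same rule. The same 2 of 3 were lower after entrapment (27.2% of all tested) and after decompression (27.2%). No member was higher by the rule, 0 of 3 after denervation (15.6% of all tested), entrapment (11%) and decompression (13.3%). Counted from the most negative mean difference among the 173, miR-320 stood at place 11, 12 and 8 and miR-324-3p at place 12, 10 and 14 in the 3 groups, and miR-324-5p at 78, 94 and 103. The median difference of all tested miRNAs was -0.07, -0.37 and -0.25. It moved to 1.32, 1.04 and 1.02 with no scaling, when no member passed the rule after denervation. Unscaled, the mean differences from sham were -1.44, -2.01 and -3.03 for miR-320 and -1.37, -2.12 and -2.18 for miR-324-3p, the smallest of the 5 scalings. Unscaled miR-320 on denervation array 2 was above sham, at 60.2 against 57.8.

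In the DRGs the differences were smaller, and miR-324-3p was the member with the clearest one. It measured 227 on the sham array and 190, 210 and 176 on the denervation arrays. It measured 102, 113 and 105 after entrapment and 115, 103 and 112 after decompression. The 6 entrapment and decompression arrays all lay below the sham and denervation arrays, with a wide gap between both sets. The log2 differences from sham were -0.24 ± 0.13, -1.09 ± 0.08 and -1.04 ± 0.08 (SD, n = 3). The difference reached 2-fold on 2 of the 3 arrays of either group, so it lay at the threshold. Its size depended on the scaling, and with median scaling, which moved the median difference of all tested miRNAs in these groups to 0.73, it was -0.04, -0.24 and -0.19. Relative to the median of all tested miRNAs, which any constant per array leaves unchanged, it was -0.97 after entrapment and -0.91 after decompression.

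miR-320 measured 17.4 on the DRG sham array and 20.1, 21.1 and 14.8 after denervation. It measured 10.9, 11.8 and 14.8 after entrapment and 15.7, 13.5 and 14.6 after decompression. Denervation overlapped sham and decompression, while entrapment and decompression overlapped each other below sham. The log2 differences from sham were 0.08 ± 0.27, -0.49 ± 0.23 and -0.26 ± 0.11 (SD, n = 3), but with median scaling those of entrapment and decompression were 0.35 and 0.60 and with quantile normalization 0.34 and 0.58, the opposite sign. The signal was 2.87 to 7.63 times its error.

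miR-324-5p measured 83.4 on the DRG sham array and 80.3, 86.1 and 74.0 after denervation. It measured 84.8, 100.4 and 92.9 after entrapment and 86.6, 94.4 and 104.0 after decompression. All 6 arrays of these groups lay above sham, entrapment overlapped denervation, and decompression lay just above it. The log2 differences were -0.06 ± 0.11, 0.15 ± 0.12 and 0.18 ± 0.13 (SD, n = 3), and with no scaling those of entrapment and decompression were -0.20 and -0.16, while with median scaling the 3 differences were 0.14, 0.99 and 1.04, so the latter groups lay about 2-fold above sham. By the 2-fold rule 0 of the 3 members were lower after denervation (0.913% of the 219 tested), 0 after entrapment (11% of all tested) and 0 after decompression (13.7%). The members at least 2-fold higher numbered 0 of 3 in each group (0.457%, 0% and 0% of all tested). Without entrapment array 2, or without decompression array 1, the count in that group was 1, miR-324-3p.

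**Figure D2:**
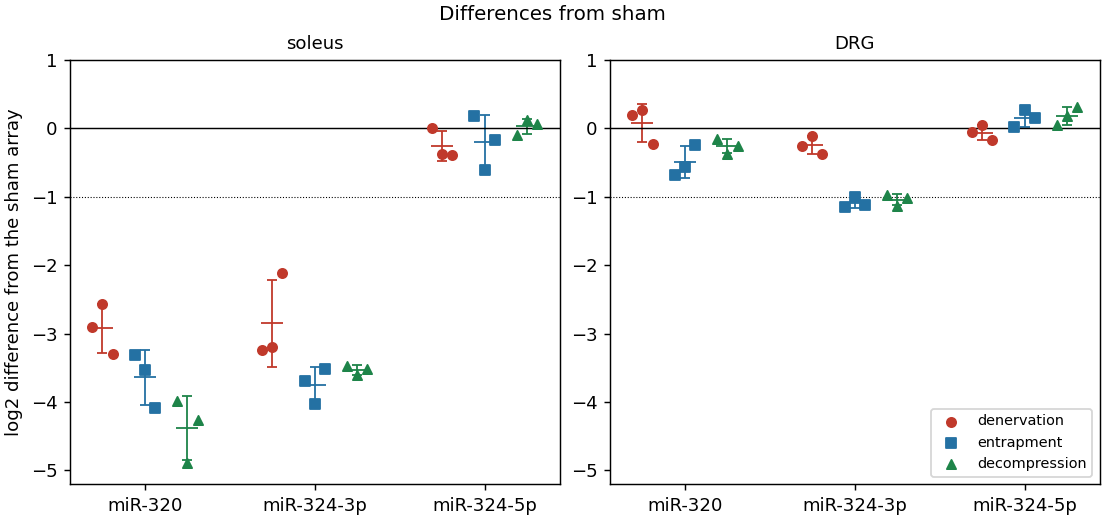
Log2 difference of each injury array from the 1 sham array of its tissue, for the 3 miRNAs in soleus (left) and DRGs (right). Horizontal ticks with bars are the mean and SD of 3 arrays, and the dotted line marks a 2-fold lower signal. miR-320 and miR-324-3p lie between -4.89 and -2.12 in soleus, and miR-324-3p lies near the dotted line in the DRGs after entrapment and decompression.

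Set against denervation, entrapment was lower without overlap for 2 of the 3 members in soleus, where 23.1% of the tested miRNAs were lower in that way, at -0.72 for miR-320 and -0.90 for miR-324-3p on the log2 scale. In soleus decompression the same 2 of 3 were lower (25.4% of all tested), at -1.46 and -0.68. These soleus counts fell to 0 or 1 with no scaling, median scaling, quantile normalization or the other percentile set, and without denervation array 3 miR-324-3p was at -0.49 and -0.27. Without entrapment array 3 the entrapment count was 1. In the DRGs 2 of 3 were lower after entrapment (37.9% of all tested), at -0.57 and -0.84, and 1 of 3 after decompression (39.7%), miR-324-3p at -0.80. The miR-320 call in DRG entrapment rested on 14.80 on entrapment array 3 against 14.84 on denervation array 3. With the processed values, which name both groups the other way round, the DRG entrapment count was 1. miR-324-5p was higher without overlap after DRG decompression, at 0.24, 1 of the 3 members (16.9% of all tested). In the other comparisons 0 of 3 were higher in that way (7.51% of all tested in soleus entrapment, 8.09% in soleus decompression and 13.2% in DRG entrapment). These shares show that such a difference was common, above all in the DRGs. The miR-320 difference turned sign with quantile normalization in soleus entrapment (0.08) and with median (0.07) or quantile scaling (0.07) in DRG entrapment. In DRG decompression, where miR-320 overlapped denervation, it went from -0.34 to 0.31 with either of these scalings.

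When the 6 entrapment and decompression arrays were set against the 4 sham and denervation arrays, miR-320 and miR-324-3p were lower without overlap in soleus (12.7% of all tested) and miR-324-3p in the DRGs (26.9%). Features that the files mark as controls and not as miRNAs parted the same arrays without overlap by their unscaled signal, in either direction, for 26.7% of 45 in soleus and 53.3% in the DRGs. Handling of the arrays and the injury groups cannot be told apart here.

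The ratio of both miR-324 arms on 1 array does not change when an array is multiplied by a constant, as all scalings here do except quantile normalization. Each probe has its own brightness, so only changes of the ratio between arrays are read, not which arm is more abundant. In soleus the log2 of miR-324-3p over miR-324-5p was 4.33 on the sham array, 1.09, 1.51 and 2.59 after denervation, 0.44, 0.91 and 0.99 after entrapment and 0.97, 0.60 and 0.74 after decompression. In the DRGs it was 1.44 on the sham array, 1.24, 1.28 and 1.25 after denervation, 0.27, 0.18 and 0.17 after entrapment and 0.41, 0.13 and 0.11 after decompression. In both tissues all 6 entrapment and decompression arrays lay below all 4 sham and denervation arrays, and entrapment overlapped decompression. The highest soleus ratios, on sham and denervation array 3, fell on the dimmest soleus arrays, with 75th percentiles of 409 and 413. There the miR-324-5p signal was 7.0 and 5.29 times its error, the lowest on any array. The part of array brightness in the ratio was not tested. With quantile normalization, tried after the values were seen, the changes from sham were larger in soleus (-3.46, -4.76 and -4.64, against -2.60, -3.55 and -3.56) and alike in the DRGs (-0.13, -1.17 and -1.19, against -0.18, -1.24 and -1.23), and both sets of arrays still did not overlap. The group means were 1.73 ± 0.78, 0.78 ± 0.29 and 0.77 ± 0.18 in soleus and 1.26 ± 0.02, 0.21 ± 0.06 and 0.22 ± 0.17 in the DRGs (SD, n = 3, in the order denervation, entrapment, decompression). In the DRGs, where the 2-fold rule called no member, the 3p arm was about 2-fold lower against its partner than on the sham and denervation arrays. Since these arrays also chose the members, no test is given.

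**Figure D3:**
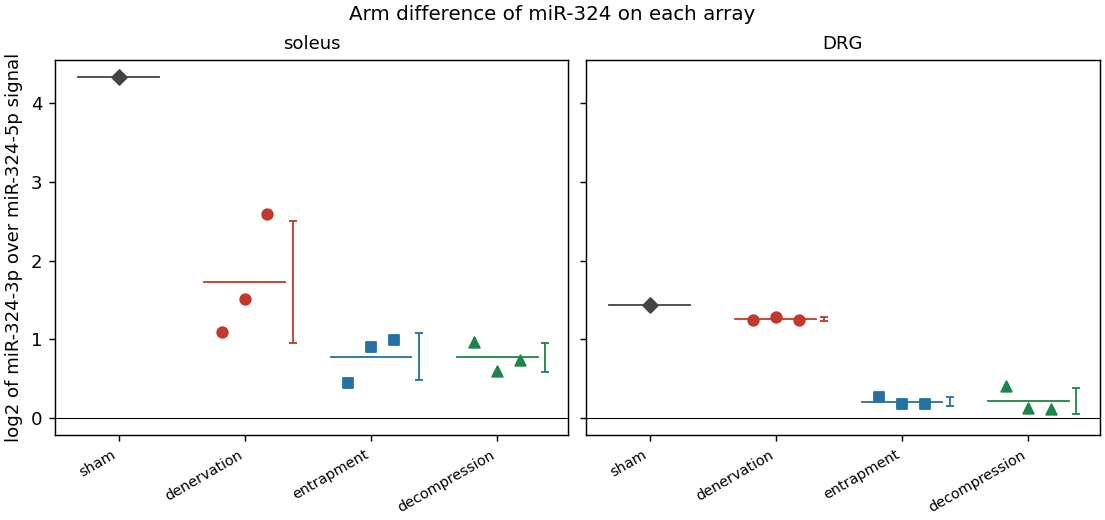
Log2 of the miR-324-3p signal over the miR-324-5p signal on each array, in soleus (left) and DRGs (right), by group. Points are arrays, lines are group means and the bars beside them are the SD of 3 arrays. In the DRGs the sham and denervation arrays lie at 1.24 to 1.44 and the other 6 arrays at 0.11 to 0.41.

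Other hairpins gave the scale for this change. Of 78 hairpins with both arms on the array, 7 had both detected on all 20 arrays, miR-324 among them. Between the 6 entrapment and decompression arrays and the 3 denervation arrays the arm difference of miR-324 changed by -0.96 in soleus and -1.05 in the DRGs. The sizes of the other 6 changes had a median of 0.17 and a highest value of 0.54 in soleus, and 0.16 and 0.43 in the DRGs, so 0 of 6 reached that of miR-324 in either tissue. The soleus change rested on denervation array 3, and without it miR-324 was at -0.53 and 2 of the 6 others were as large, up to 0.68 (miR-29c). Leaving out any 1 injury array in the DRGs gave -1.09 to -1.03, with 0 of 6 as large. Among pairs detected on all 10 arrays of a tissue, a set added after the values were seen, 1 of 9 others was as large in soleus (miR-29a, 2.54) and 2 of 15 in the DRGs (the largest miR-126, 1.67). Both sets of arrays, 6 against 4, parted without overlap for 14.3% of the 7 pairs in soleus and 42.9% in the DRGs, and for 20% and 43.8% of the larger sets. The 6 arrays parted from the 3 denervation arrays alone for 28.6% of the 7 pairs in soleus and 57.1% in the DRGs. Changes from sham in soleus were large for most pairs, with a median size of 2.25 to 2.39 over the other 6 against 2.60 to 3.56 for miR-324.

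**Figure D4:**
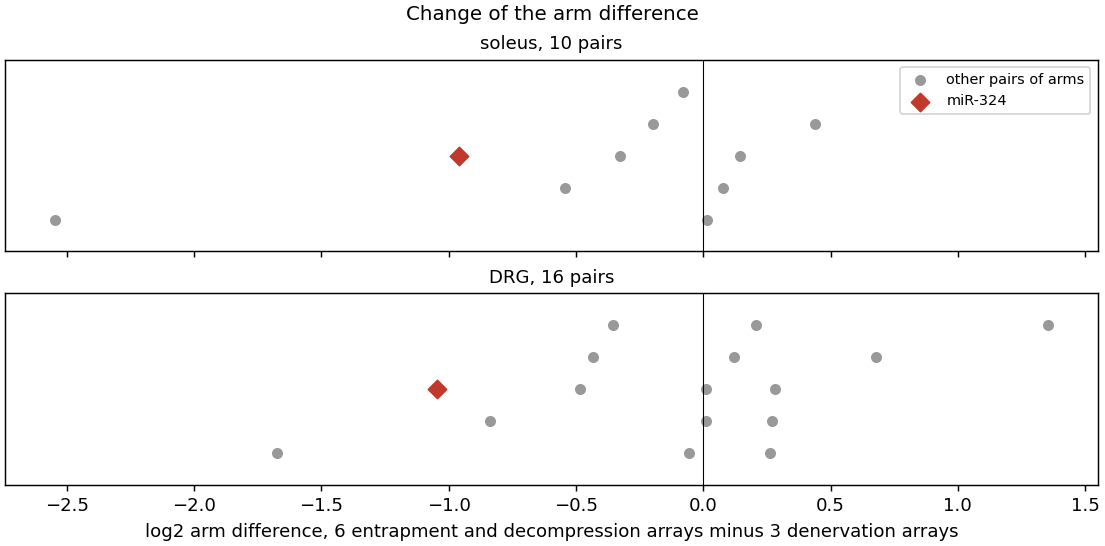
Change of the log2 arm difference between 6 entrapment and decompression arrays and 3 denervation arrays, for every hairpin with both arms detected on all 10 arrays of the tissue, 10 pairs in soleus and 16 in the DRGs. Each point is a hairpin, vertical position has no meaning, and the diamond is miR-324 at -0.96 and -1.05.

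Between the tissues, the mean of the arm difference over the 4 conditions was lower in the DRGs, by -1.12 on the log2 scale. The soleus sham array weighed heavily, and without both sham arrays the difference was -0.53. No test is given, since the sham and injury arrays chose the members. Over the other 6 pairs, with both sham arrays included, the sizes of this difference had a median of 0.84 and a highest value of 0.95. These sizes were not computed without sham, so the place of miR-324 among the pairs is not read.

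The level of miR-324-5p was higher in the DRGs than in soleus by a log2 difference of 1.45, from the limma fit of 234 miRNAs. No test of a member is given, since the same arrays chose the members, though by differences from sham within a tissue. Over all miRNAs tested 81.6% passed, but in simulated data this fit made 88 false calls, so that share is not read. The miR-324-5p difference was 0.60 to 1.45 over the alternatives. miR-324-3p differed by 0.33 and miR-320 by -0.10, both smaller in size than the shift of -0.41 in unchanged simulated miRNAs. The scaling moved both: with quantile normalization they were -0.50 and -1.94. The single soleus sham array also weighed on both, and no tissue fit left sham out. On the shared scale miR-320 measured 130.8 on soleus sham and 19.41 on DRG sham, and miR-324-3p 819.7 and 252.2. After entrapment and decompression each DRG array lay above the soleus arrays of its group for both miRNAs. After denervation miR-320 overlapped and miR-324-3p did not (184.8 in the DRGs against 184.3 in soleus at the nearest). Leaving out 1 injury array put the miR-324-3p difference between 0.28 and 0.44.

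Decompression and entrapment were compared to ask whether levels had moved 3 months after the tube was removed. In soleus miR-320 was lower after decompression by a log2 difference of -0.74 (SE 0.34, 95% interval -1.51 to 0.03), miR-324-3p differed by 0.21 (-0.54 to 0.97) and miR-324-5p by 0.23 (-0.38 to 0.84), with an adjusted p of 1 for each in limma. In the DRGs the differences were 0.23 (-0.14 to 0.60) for miR-320, 0.04 (-0.16 to 0.25) for miR-324-3p and 0.03 (-0.20 to 0.27) for miR-324-5p, again with an adjusted p of 1 in limma. The 3 arrays of both groups overlapped for each member in each tissue, 0 of 3 parting where 4.05% of all tested did in soleus and 6.85% in the DRGs. No member passed, and over all miRNAs limma called 0 of 173 in soleus (0%) and 0 of 219 in the DRGs (0%), with 7 and 9 at an unadjusted p under 0.05. The intervals are wide in soleus and narrow for both miR-324 arms in the DRGs. With the processed values the DRG signs turned (-0.23, -0.04 and -0.03), since that table names the same arrays the other way round. The difference between the tissues in this contrast was 0.94 for miR-320 (SE 0.39), -0.21 for miR-324-3p and -0.23 for miR-324-5p, each with an adjusted p of 1 in limma. It passed for 0 of 234 miRNAs (0%), with 8 at an unadjusted p under 0.05.

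The miRNAs whose pattern over the 10 arrays of a tissue was most like that of a member were named by Pearson's r on the log2 scaled signal, as a description over arrays that share their groups and scaling. In soleus they were miR-100 (r = 0.91), miR-494 (0.91) and miR-181b (0.90) for miR-320, miR-494 (0.94), miR-181a (0.83) and miR-204 (0.82) for miR-324-3p, and miR-101a (0.73), miR-101b (0.67) and miR-107 (0.54) for miR-324-5p. In the DRGs they were miR-133a (0.90), miR-409-5p (0.89) and miR-33 (0.86) for miR-320, miR-212 (0.98), miR-125a-5p (0.97) and miR-126* (0.96) for miR-324-3p, and miR-107 (0.93), miR-410 (0.92) and miR-652 (0.89) for miR-324-5p. Among the members, miR-320 and miR-324-3p had r = 0.85 in soleus and 0.79 in the DRGs. The arms of miR-324 had r = 0.08 in soleus and -0.62 in the DRGs.

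Of the other miRNAs known to repress activators of hedgehog signalling, miR-125b-5p had log2 differences from sham of -0.51 ± 0.25, -1.03 ± 0.41 and -1.36 ± 0.08 in soleus (SD, n = 3, denervation, entrapment, decompression) and of 0.23 ± 0.09, -0.03 ± 0.12 and 0.02 ± 0.07 in the DRGs. By the 2-fold rule it was lower in 1 of the 6 comparisons, soleus decompression. miR-326 was detected on 1 injury array of soleus and was not tested there, and its differences in the DRGs were -0.37 ± 0.21, -0.24 ± 0.10 and -0.22 ± 0.11. miR-484, also made from a capped precursor, was detected on 0 injury arrays of either tissue.

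The study named 5 other miRNAs for the DRGs, chosen on these samples, so they are no independent evidence of a direction. By the 2-fold rule miR-9 was lower after entrapment (-1.23 ± 0.16, SD, n = 3) and decompression (-1.25 ± 0.04) in the DRGs, the same groups in which miR-324-3p lay near 2-fold. After DRG denervation miR-144 was lower (-1.68 ± 0.51) and miR-21 higher (1.29 ± 0.02), and miR-672 and miR-466b passed in 0 DRG groups.

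Markers of other cell types also differed between the groups, on the scale shared by all arrays. In soleus the sum over both endothelial miRNAs was 323.3 on the sham array and 889.6 to 1455 on the injury arrays, that over 4 leukocyte miRNAs was 608.7 on sham, 411.6 to 664.5 after denervation and 268.0 to 384.7 after entrapment or decompression, and that over both red blood cell miRNAs was 1054 on sham and 167.0 to 1982 after injury. The sum over both glial miRNAs was 91.73 on sham and 43.97 to 172.8 after injury. In the DRGs the endothelial sum was 690.3 on sham and 619.2 to 745.9 after injury, the leukocyte sum 1001 and 586.3 to 1167, the red blood cell sum 3341 and 801.4 to 5316, and the glial sum 8884 and 11610 to 14180. Of the markers listed, miR-133a of skeletal muscle and miR-126* of endothelium were among the miRNAs most like a member in the DRGs. miR-133a, most like miR-320, differed from DRG sham by -0.27 ± 0.24, -0.88 ± 0.13 and -0.49 ± 0.21 (SD, n = 3), while the sum over the 5 muscle miRNAs was 358.6 on DRG sham and 260.9 to 467.4 after injury. For miR-126*, most like miR-324-3p, the partner arm miR-126 differed from DRG sham by 0.00 and -0.04 after entrapment and decompression while miR-126* itself differed by -1.69 and -1.68. The part of cell composition in the members' values was not tested.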

How the data were processed

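The scanner files that the authors deposited hold a background-subtracted intensity per miRNA and array, made from its probes by Agilent Feature Extraction 9.5.3, with an error and a detection call and with no normalization between arrays. A further deposited table holds a processed signal, which equals this intensity up to a constant for each array, apart from some soleus values and the swapped DRG names. The labels describe labelling with Cy3-CTP and the Methods ligation of pCp-Cy3, and the Methods are followed.

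Signals were divided by the array's 75th percentile (in soleus over 108 miRNAs detected throughout, over all 348 with 1 name in every file in the DRGs, and over the 102 detected on all 20 arrays for the comparison of tissues) and returned to the median percentile of the set. Signals under the lowest detected level (2.86 in soleus, 2.28 in the DRGs, 2.42 in the joint set) were raised to it before log2. Tests covered miRNAs with detection on at least 3 arrays, 173 in soleus, 219 in the DRGs and 234 jointly, and all 3 members passed. Of the 60 member values 58 were detected.

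limma 3.58.1 in R 4.3.3 (lmFit and eBayes, group as the only term, two-sided, Benjamini-Hochberg adjustment at 0.05) used all 10 or 20 arrays, with 6 or 12 residual degrees of freedom. The sham groups of 1 array took the spread estimated from the rest. In simulations where 40 miRNAs were changed by a log2 difference of 2, limma recovered 38 among 173 miRNAs for decompression minus entrapment in soleus (3 false calls), 40 among 219 in the DRGs (4), 34 among 234 for the difference between tissues in this contrast (0) and 40 among 234 for the tissue difference, but there with 88 false calls and a median shift of -0.41 in unchanged miRNAs, so tissue differences of that size are not read. Plots used matplotlib 3.10.9 under Python 3.11.15.

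The members, the lists and the tests were chosen with earlier results of these data known. The miRNAs named are the members, for each the 3 with the highest Pearson correlation in a tissue among those detected on all its arrays, and listed ones: hedgehog repressors, capped precursor, other arm pairs, miRNAs the study names for the DRGs, and markers of skeletal muscle, neurons, glia, red blood cells, leukocytes and endothelium. miR-29a and miR-126 were named after their values were seen. Alternatives were other scalings, percentile sets, floor, filters, the processed values, fits with an intensity trend, with 6 arrays only or with a replicate block, and leaving out each injury array. The number of arrays limits the precision. No slide or scan could be read from the files, so neither was tested as a batch.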

Additional observations from a re-analysis of the deposited data

How the results depend on the processing

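The level of miR-324-5p between tissues kept its direction under every alternative run. It came from the fit that made 88 false calls in simulated data, so no test of it is given. The arm difference between tissues kept its direction. In soleus the group means of miR-320 and miR-324-3p lay below sham under every scaling. With no scaling, though, miR-320 on denervation array 2 lay above sham. Several other results depended on the scaling, and the cause was not tested. Of the single differences from sham or denervation recomputed under an alternative, 408 moved by less than 1 SD, 69 moved by more and 3 turned sign from a called value. For each difference 9 recomputations left out 1 array and 7 changed another setting. Leaving out 1 of 3 arrays cannot by itself move a mean by 1 SD. All larger moves and turns of sign came from the other settings, so the count of 408 does not measure stability. With no scaling, decompression minus entrapment in soleus was -0.063 for miR-324-3p and -0.052 for miR-324-5p, and its difference between tissues 0.12 and 0.10 (0.010 for miR-324-5p with quantile normalization). With the processed values the DRG contrast was -0.23 for miR-320, -0.045 for miR-324-3p and -0.035 for miR-324-5p, and leaving out 1 array put that of miR-324-5p between -0.032 and 0.099.

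Between tissues, miR-320 was at -0.57 with median scaling, -1.94 with quantile normalization, -0.89 with the other percentile set and -0.25 with a pseudocount of 10. miR-324-3p was at -0.15, -0.50 and -0.47 under the first 3. Without 1 array, miR-320 ran from -0.15 to 0.022 and miR-324-3p from 0.28 to 0.44. The count of miRNAs that differed fell from 191 to 82 where detection on all arrays was required.

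Members at least 2-fold lower than sham numbered 0 after soleus denervation with no scaling. In DRG entrapment they numbered 1 with no scaling, quantile normalization, the other percentile set or the mean of 3 arrays, in DRG decompression 1 with no scaling or the mean, and 0 to 1 without 1 array in both. Members lower than denervation without overlap numbered, with no scaling, median, quantile and the other set, 0, 1, 1 and 0 in soleus entrapment and 0, 1, 0 and 1 in soleus decompression. In DRG entrapment they numbered 0 with median scaling and 1 with quantile normalization or the processed values, and in DRG decompression 2 with no scaling or the processed values and 0 with median scaling. Without 1 array they ran from 1 to 2 in soleus entrapment and DRG decompression. The miR-320 difference from denervation was 0.075 in soleus entrapment with quantile normalization. With median and quantile scaling it was 0.071 and 0.066 in DRG entrapment and 0.314 and 0.306 in DRG decompression.

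The replicate numbers were not taken to pair the arrays, since the correlation of deviations between same-numbered soleus and DRG arrays ran from -0.26 to 0.24, and those of same-numbered arrays within soleus from -0.47 to 0.21 and within the DRGs from -0.12 to 0.48, so that not every pair was above 0.1 in any of the 3 sets. With the number as a replicate block, limma called 191 miRNAs between tissues and 0 in the other contrasts, and no call changed. The single sham array per tissue, the dim signal of miR-320 and the differing array brightness limit these values most.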
